A study of Homo sapiens with 18 samples.

Results

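A set of 10 genes that ATF4 is known to drive, all serving amino acid synthesis or transport, was followed across 3 human pancreatic cancer lines. They were picked by symbol, as 10 of the 26485 genes in the count files: ASNS for asparagine, PHGDH, PSAT1 and PSPH for serine, SHMT2 and MTHFD2 for mitochondrial one-carbon units, PYCR1 for proline, and SLC7A11, SLC7A5 and SLC3A2 for transport. The study treated BxPC3, Panc327 and SUIT2 cells with THZ1, a covalent inhibitor of the transcriptional kinase CDK7, or with the solvent DMSO, and sequenced polyadenylated RNA. The groups were 100 nM THZ1 for 6 h, against DMSO for 6 h, in each line, with 3 libraries per group and 18 in all. All groups of a line come from that 1 cell line, so a difference between lines does not stand for kinds of tumour. The labels do not say that the libraries of a group came from separate cultures, so the p-values measure the spread between these libraries. That spread was small: chi-square per degree of freedom between libraries of a group ran from 1.251 to 2.525, where counting noise alone gives about 1. The p-values therefore do not show how far separate cultures would differ.

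ATF4 is the transcription factor of the integrated stress response: when eIF2 is phosphorylated, general translation slows while ATF4 protein is made from its mRNA. ATF4 binds composite C/EBP-ATF sites in genes for amino acid synthesis, amino acid uptake and aminoacyl-tRNA formation. In pancreatic cancer cells the pathway is known for sustaining growth when amino acids are scarce.

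The libraries held 5626146 to 8631273 counts assigned to genes, of which the 10 genes took 0.241% to 0.868%. The labelled epithelial origin was checked against markers. The 5 epithelial markers KRT8, KRT18, KRT19, EPCAM and CDH1 summed to 3718 to 8158 CPM per library, where CPM is a gene's count scaled to a common library total. Single markers varied: KRT8 ran from 1112 to 4694 CPM and CDH1 from 23.4 to 1132 CPM. The 6 fibroblast markers summed to 0.136 to 85.0 CPM, with DCN at 0 in every library and COL1A1 reaching 74.5 CPM. The 5 leukocyte markers summed to 0.336 to 7.12 CPM and the 3 endothelial markers to 2.32 to 18.6 CPM. Records tallied as not uniquely aligned, which are not a count of reads, made up 22.8% of all records in THZ1-treated BxPC3 and 12.8% in DMSO (exact permutation p = 0.1, 2-sided, the smallest p for 3 against 3). In Panc327 they made up 52.8% with THZ1 and 13.6% with DMSO (exact permutation p = 0.1), and in SUIT2 12.9% with THZ1 and 13.2% with DMSO (exact permutation p = 0.7). That share moved with the treatment in the same 2 lines where most of the 10 genes rose, and its part in the results was not tested.

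Across the 10 genes, 8 rose with THZ1 in BxPC3, 9 rose and 1 fell in Panc327, and 1 rose and 1 fell in SUIT2. All values were scaled by the trimmed mean of M-values (TMM), and a gene counts as changed at an adjusted p under 0.05 from edgeR's quasi-likelihood test over 14011 genes. ASNS, PHGDH and SHMT2 were 1.86-fold to 1.97-fold higher with THZ1 in BxPC3 and Panc327, and PSAT1 was 1.66-fold higher in BxPC3 and 1.83-fold in Panc327. SLC7A5 went the other way in Panc327 and SUIT2. A response here is relative to the TMM scaling of each library: fewer cells and less RNA per cell cannot be told apart from these counts.

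These counts were read against how often any gene changed. The 10 genes and the related lists below were chosen with earlier results of these data known. Their counts beside such shares are therefore a description and not a test of the set. In BxPC3, 35.2% of all tested genes were higher with THZ1 and 34.1% lower, and 0 of the 10 were lower (also 0 at an unadjusted p under 0.05, with DESeq2 and with limma voom). In Panc327 the background was 35.6% higher and 37.8% lower, and in SUIT2 it was 6.95% higher and 7.64% lower. The median log2 fold change of the 10 genes was 0.44 in BxPC3, 0.70 in Panc327 and -0.01 in SUIT2, beside medians over all genes of 0.00, -0.01 and 0.01. Well expressed genes are nearer in level, since 9 of the 10 (all but PSPH) averaged at least 50 CPM over the 18 libraries. That average includes the THZ1 libraries, so genes raised by THZ1 reach it more easily and the shares higher can be inflated. With DMSO, ASNS averaged 33.2 CPM in BxPC3, 60.0 CPM in Panc327 and 31.1 CPM in SUIT2. Among the 4436 genes at that level, 62.1% were higher and 24.9% lower in BxPC3, with a median of 0.32. In Panc327 55.8% of them were higher and 31.2% lower, with a median of 0.25. In SUIT2 12.5% were higher and 8.07% lower, with a median of 0.04. The 8 of 10 in BxPC3 is closer to the share among well expressed genes than to the share among all genes, with that limit of the level cutoff. SLC7A11 (0.21) and SLC3A2 (0.15) were called higher in BxPC3 but lay under its median of well expressed genes. MTHFD2 (0.20) did so in Panc327, and the others of the 10 called higher lay above the median of their line.

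Scaling matters for these directions. Dividing by library size alone, without TMM, moved the median of all genes to -0.35 in BxPC3, to -0.34 in Panc327 and to 0.00 in SUIT2. The genes called over the whole table then split into 2601 higher and 7109 lower in BxPC3, beside 4938 and 4784 with TMM. In Panc327 they split into 3170 higher and 7042 lower, beside 4992 and 5291. Of the 10 genes, 5 were then higher and 4 lower in BxPC3, 7 higher and 2 lower in Panc327, and 1 higher and 1 lower in SUIT2. ASNS, PHGDH, PSAT1 and SHMT2 rose in BxPC3 and Panc327 under both scalings. Both scalings are relative to each library, so a rise here is not shown to be a rise in amount per cell.

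**Figure D1:**
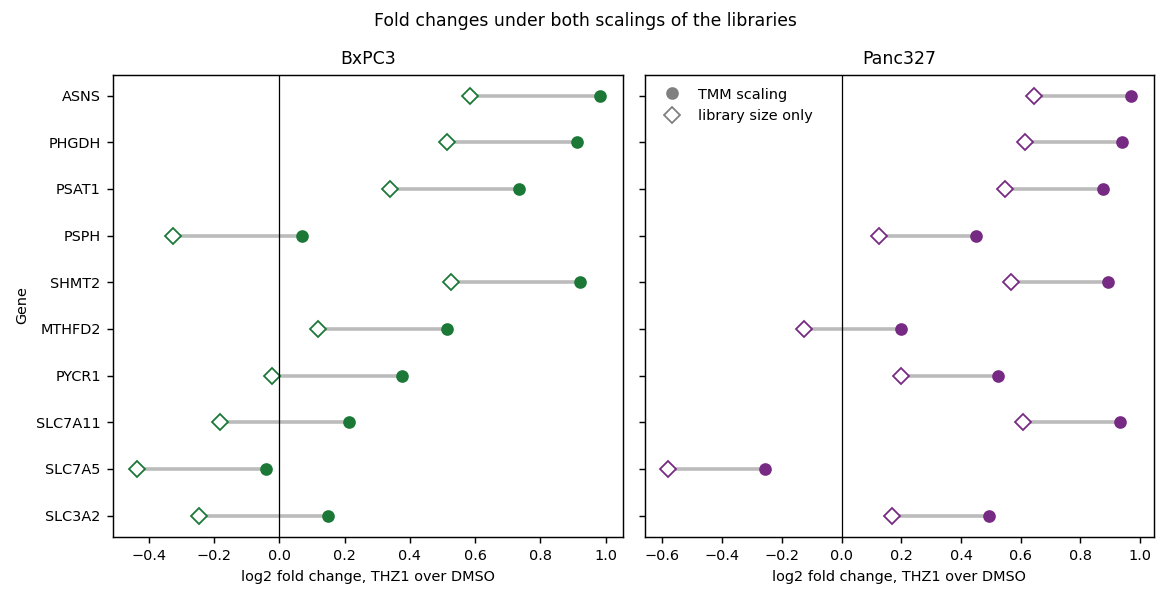
Log2 fold change of each gene, THZ1 over DMSO (x axis), in BxPC3 and Panc327, with TMM scaling (filled circles) and with library size only (open diamonds). All points move left under library size only; in BxPC3 PSPH, PYCR1, SLC7A11 and SLC3A2 cross 0, and in Panc327 MTHFD2 does.

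ASNS encodes asparagine synthetase, which makes asparagine from aspartate and glutamine, and is a classical ATF4 target. It lies at chr7:97852118-97872542 on the minus strand (GENCODE 29, GRCh38). In BxPC3 it stood at 69.0, 62.8 and 64.5 CPM with THZ1, against 36.4, 32.1 and 31.0 CPM with DMSO. In Panc327 it stood at 109, 125 and 119 CPM with THZ1, against 60.5, 60.6 and 58.8 CPM with DMSO. In both lines every THZ1 library lay above every DMSO library. SUIT2 had 32.0, 35.4 and 38.6 CPM with THZ1, against 29.02, 32.4 and 31.8 CPM with DMSO, and there the groups overlapped. The log2 fold change was 0.98 in BxPC3 (SE 0.077, edgeR adjusted p = 7.08e-21), 0.97 in Panc327 (SE 0.064, edgeR adjusted p = 2.9e-25) and 0.18 in SUIT2 (SE 0.082, edgeR adjusted p = 0.125). Without THZ1 library 1 the SUIT2 value was 0.25 and passed the threshold (edgeR adjusted p = 0.0483).

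The promoters were searched for TGATGNAA on both strands, the letters of a C/EBP-ATF composite element. The windows were 300 bases, running from 250 before to 50 after each RefSeq start (GRCh38.p14). RefSeq windows were at hand for 6 of the 10 genes, 9 windows in all. PSPH, SHMT2, PYCR1 and SLC7A11 had no entry. The letters occurred in 1 of 2 windows of ASNS, in 1 of 3 windows of SLC3A2 and in 1270 of all 35116 windows (3.62%). A match is a description of the letters and not a site of binding. The matching windows are shown with the letters in capitals. Beside them is the only window of SLC7A5, which pairs with SLC3A2 as a protein and held no match. Whether the letters go with a response was not tested.
ASNS, minus strand, chr7:97872359-97872658: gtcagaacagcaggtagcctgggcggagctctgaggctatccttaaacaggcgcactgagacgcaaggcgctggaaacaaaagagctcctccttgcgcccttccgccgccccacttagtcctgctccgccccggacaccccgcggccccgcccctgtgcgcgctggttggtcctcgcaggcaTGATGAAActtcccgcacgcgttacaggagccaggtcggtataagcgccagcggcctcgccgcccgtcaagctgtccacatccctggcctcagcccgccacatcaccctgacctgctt
SLC3A2, plus strand, chr11:62881449-62881748: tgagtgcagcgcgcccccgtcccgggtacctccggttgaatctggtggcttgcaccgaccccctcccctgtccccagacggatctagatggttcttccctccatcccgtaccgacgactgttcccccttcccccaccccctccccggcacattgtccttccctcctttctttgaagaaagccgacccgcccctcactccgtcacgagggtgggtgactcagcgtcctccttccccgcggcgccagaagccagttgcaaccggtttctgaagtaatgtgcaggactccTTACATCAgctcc
SLC7A5, minus strand, chr16:87869458-87869757: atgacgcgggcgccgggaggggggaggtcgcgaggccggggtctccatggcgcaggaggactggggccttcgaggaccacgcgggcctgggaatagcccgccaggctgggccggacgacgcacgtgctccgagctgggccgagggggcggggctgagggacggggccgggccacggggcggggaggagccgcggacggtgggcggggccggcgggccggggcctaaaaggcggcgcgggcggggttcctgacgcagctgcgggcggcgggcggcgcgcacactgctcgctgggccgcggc
In ASNS the letters TGATGAAA begin at position -68 on the gene's own strand, with the start as position 1. In SLC3A2 they read TGATGTAA on the opposite strand, and their first base on the printed strand is at position 38. PHGDH, PSAT1 and MTHFD2, which rose with THZ1 in BxPC3 and Panc327, have these letters in none of their windows, which says nothing of sites outside them.

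The serine pathway has its enzymes in sequence: PHGDH oxidises 3-phosphoglycerate, PSAT1 adds the amino group and PSPH removes the phosphate. PHGDH and PSAT1 rose in BxPC3 and Panc327, and PSPH rose in Panc327. PHGDH (chr1:119648411-119744226, plus strand) stood at 142, 132 and 151 CPM with THZ1 in BxPC3, against 75.6, 78.6 and 71.7 CPM with DMSO. In Panc327 PHGDH stood at 228, 238 and 213 CPM with THZ1, against 116, 117 and 120 CPM with DMSO. For SUIT2 the PHGDH values were 176, 162 and 153 CPM with THZ1, against 143, 150 and 155 CPM with DMSO. The groups overlapped in SUIT2 and were apart in the other lines. PHGDH had a log2 fold change of 0.91 in BxPC3 (SE 0.059, edgeR adjusted p = 9.53e-26), 0.94 in Panc327 (SE 0.053, edgeR adjusted p = 1.45e-29) and 0.14 in SUIT2 (SE 0.051, edgeR adjusted p = 0.0616). Without THZ1 library 3 the SUIT2 value was 0.18 and passed (edgeR adjusted p = 0.0226).

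PSAT1 (chr9:78297143-78330093, plus strand) stood at 128, 120 and 126 CPM with THZ1 in BxPC3, against 72.2, 75.6 and 77.1 CPM with DMSO. Panc327 held more of it: 357, 352 and 348 CPM with THZ1, against 196, 189 and 193 CPM with DMSO. In SUIT2 PSAT1 stood at 115, 108 and 121 CPM with THZ1, against 105, 109 and 115 CPM with DMSO. Only SUIT2 had overlapping groups. The log2 fold change of PSAT1 was 0.73 in BxPC3 (SE 0.057, edgeR adjusted p = 3.05e-21), 0.87 in Panc327 (SE 0.046, edgeR adjusted p = 8.95e-32) and 0.07 in SUIT2 (SE 0.052, edgeR adjusted p = 0.446).

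PSPH (chr7:56011051-56051604, minus strand) was the 1 gene of the 10 that averaged under 50 CPM over all libraries. BxPC3 had 24.5, 18.9 and 20.6 CPM with THZ1, against 19.6, 21.3 and 20.04 CPM with DMSO. Panc327 had 49.1, 46.8 and 50.1 CPM with THZ1, against 35.4, 35.3 and 36.2 CPM with DMSO. SUIT2 had 21.5, 24.9 and 18.6 CPM with THZ1, against 24.4, 21.7 and 28.8 CPM with DMSO. Only in Panc327 did the groups stand apart. The PSPH log2 fold change was 0.07 in BxPC3 (SE 0.111, edgeR adjusted p = 0.592), 0.45 in Panc327 (SE 0.086, edgeR adjusted p = 2.09e-06) and -0.22 in SUIT2 (SE 0.098, edgeR adjusted p = 0.129). Scaled by library size alone, the Panc327 value was 0.13 and did not pass (edgeR adjusted p = 0.184), while the BxPC3 value turned to -0.32 and passed (edgeR adjusted p = 0.00715). In SUIT2 PSPH passed without DMSO library 2 (-0.31, edgeR adjusted p = 0.0392) and without THZ1 library 2 (-0.32, edgeR adjusted p = 0.0419).

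SHMT2 and MTHFD2 act one after the other in mitochondria: SHMT2 splits serine into glycine and a one-carbon unit, and MTHFD2 oxidises that unit further towards formate. SHMT2 rose in all 3 lines, and MTHFD2 in BxPC3 and Panc327. SHMT2 (chr12:57229327-57234935, plus strand) stood at 363, 352 and 347 CPM with THZ1 in BxPC3, against 190, 180 and 191 CPM with DMSO. In Panc327 SHMT2 stood at 304, 290 and 300 CPM with THZ1, against 154, 157 and 171 CPM with DMSO. In SUIT2 it stood at 433, 428 and 399 CPM with THZ1, against 362, 388 and 391 CPM with DMSO. The groups did not overlap in any line, though in SUIT2 the lowest THZ1 library lay just above the highest DMSO library. SHMT2 had a log2 fold change of 0.92 in BxPC3 (SE 0.045, edgeR adjusted p = 8.7e-34), 0.89 in Panc327 (SE 0.046, edgeR adjusted p = 4.78e-32) and 0.14 in SUIT2 (SE 0.041, edgeR adjusted p = 0.0109). The SUIT2 call was lost without DMSO library 1 (0.11, edgeR adjusted p = 0.121), without THZ1 library 1 (0.12, edgeR adjusted p = 0.0722) and without THZ1 library 2 (0.13, edgeR adjusted p = 0.0588).

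MTHFD2 (chr2:74198562-74217565, plus strand) stood at 135, 140 and 136 CPM with THZ1 in BxPC3, against 96.5, 98.1 and 93.3 CPM with DMSO. In Panc327 MTHFD2 stood at 210, 211 and 196 CPM with THZ1, against 179, 184 and 175 CPM with DMSO. SUIT2 had 93.5, 101 and 96.8 CPM with THZ1, against 97.6, 94.1 and 96.3 CPM with DMSO. BxPC3 and Panc327 groups were apart, and SUIT2 groups overlapped. Its log2 fold change was 0.51 in BxPC3 (SE 0.054, edgeR adjusted p = 1.28e-14), 0.20 in Panc327 (SE 0.048, edgeR adjusted p = 0.000153) and 0.01 in SUIT2 (SE 0.054, edgeR adjusted p = 0.943). Under library size only MTHFD2 stood at 0.12 in BxPC3 (edgeR adjusted p = 0.0425) and turned to -0.13 in Panc327 (edgeR adjusted p = 0.0141).

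PYCR1, the mitochondrial reductase of the last step of proline synthesis, rose in BxPC3 and Panc327. PYCR1 (chr17:81932384-81942412, minus strand) stood at 104, 95.5 and 101 CPM with THZ1 in BxPC3, against 76.9, 76.4 and 78.1 CPM with DMSO. In Panc327 it stood at 132, 135 and 112 CPM with THZ1, against 89.9, 84.9 and 88.3 CPM with DMSO. For SUIT2 the PYCR1 values were 148, 126 and 116 CPM with THZ1, against 144, 147 and 136 CPM with DMSO. SUIT2 THZ1 library 1 lay above all DMSO libraries and the other 2 lay under them. The log2 fold change of PYCR1 was 0.37 in BxPC3 (SE 0.068, edgeR adjusted p = 1.28e-06), 0.52 in Panc327 (SE 0.065, edgeR adjusted p = 4.88e-11) and -0.13 in SUIT2 (SE 0.058, edgeR adjusted p = 0.142). Without SUIT2 THZ1 library 1 the SUIT2 value was -0.24 and passed (edgeR adjusted p = 0.00241). The BxPC3 value was -0.02 with library size only (edgeR adjusted p = 0.799).

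**Figure D2:**
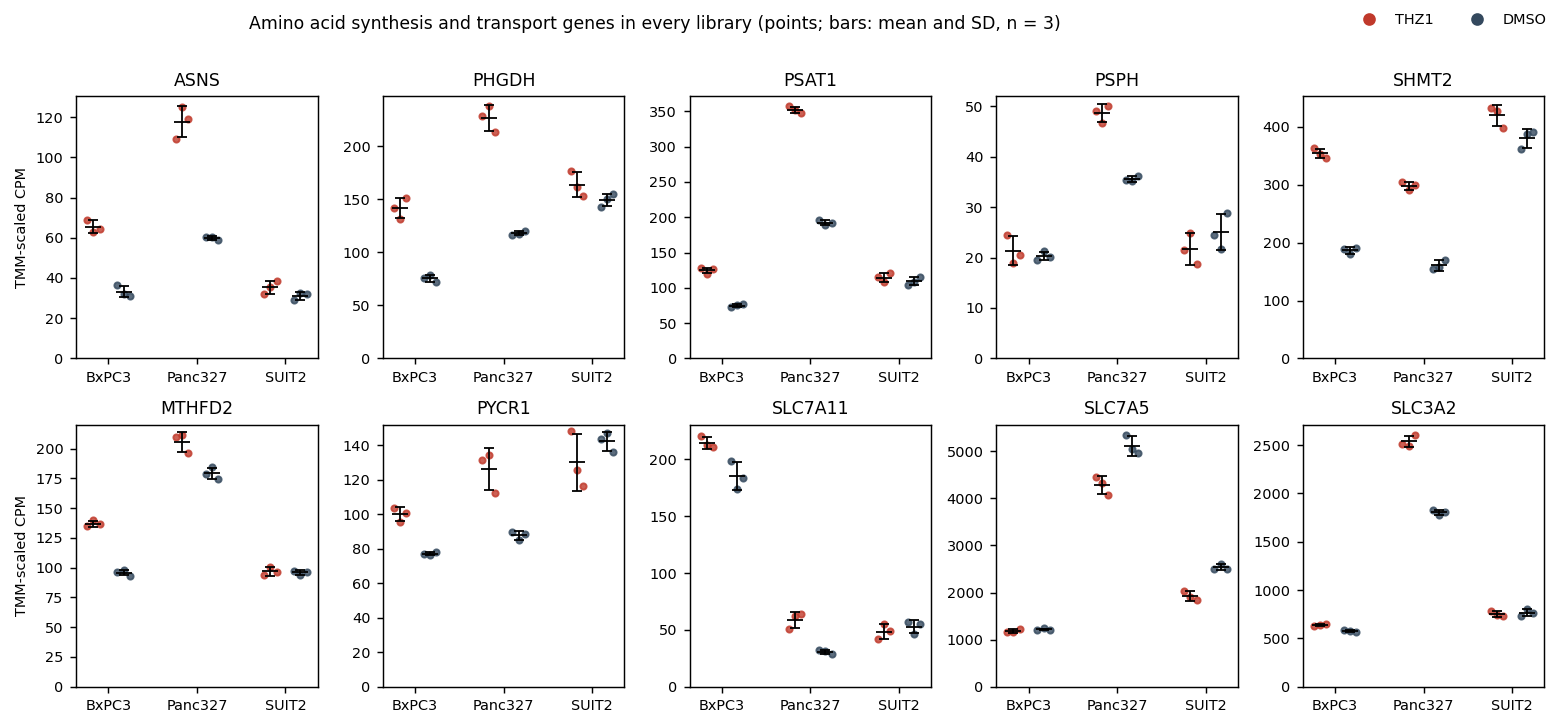
TMM-scaled CPM of each of the 10 genes (y axis, linear from 0) in BxPC3, Panc327 and SUIT2, with THZ1 (red, left) and DMSO (dark, right). Points are libraries and bars the mean and SD of 3; ASNS, PHGDH, PSAT1 and SHMT2 stand apart between treatments in BxPC3 and Panc327, while SLC7A5 is lower with THZ1 in Panc327 and SUIT2.

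The transporters behaved less alike. SLC7A11 imports cystine in exchange for glutamate, SLC7A5 imports leucine and other large neutral amino acids, and SLC3A2 is the heavy chain that pairs with either of them at the cell surface. SLC7A11 (chr4:138164097-138242349, minus strand) stood at 221, 213 and 211 CPM with THZ1 in BxPC3, against 198, 174 and 184 CPM with DMSO. In Panc327 SLC7A11 stood at 50.8, 61.9 and 63.9 CPM with THZ1, against 32.4, 31.3 and 28.4 CPM with DMSO. SUIT2 had 41.7, 54.9 and 48.6 CPM with THZ1, against 57.0, 46.4 and 55.5 CPM with DMSO. Groups overlapped in SUIT2 alone. The SLC7A11 log2 fold change was 0.21 in BxPC3 (SE 0.061, edgeR adjusted p = 0.00169), 0.93 in Panc327 (SE 0.094, edgeR adjusted p = 1.33e-12) and -0.14 in SUIT2 (SE 0.083, edgeR adjusted p = 0.283). The BxPC3 value turned to -0.18 and passed under library size only (edgeR adjusted p = 0.0116). SLC7A11-AS1, which overlaps it on the other strand, had 16, 13 and 17 counts with THZ1 in BxPC3, against 2, 3 and 2 with DMSO. In Panc327 SLC7A11-AS1 had 3, 7 and 13 counts with THZ1, against 1, 1 and 0 with DMSO. The strand setting of the counting is not given in the sources used here, so reads of the 2 genes cannot be told apart.

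SLC7A5 (chr16:87830023-87869488, minus strand) had 1166, 1163 and 1224 CPM with THZ1 in BxPC3, against 1204, 1237 and 1215 CPM with DMSO, and the groups overlapped. In Panc327 SLC7A5 had 4455, 4324 and 4069 CPM with THZ1, against 5350, 5041 and 4951 CPM with DMSO. In SUIT2 it had 2031, 1905 and 1840 CPM with THZ1, against 2497, 2615 and 2506 CPM with DMSO. All THZ1 libraries lay under all DMSO libraries in Panc327 and SUIT2. SLC7A5 had a log2 fold change of -0.04 in BxPC3 (SE 0.036, edgeR adjusted p = 0.32), -0.26 in Panc327 (SE 0.035, edgeR adjusted p = 3.7e-10) and -0.40 in SUIT2 (SE 0.035, edgeR adjusted p = 1.41e-15). In BxPC3 it passed as lower with library size only (-0.44, edgeR adjusted p = 3.78e-20) and in a fit of BxPC3 alone (-0.09, edgeR adjusted p = 0.0102). In SUIT2, 9.44% of all tested genes and 1.49% of the genes at 50 CPM or more had a lower log2 fold change than SLC7A5.

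SLC3A2 (chr11:62856102-62888875, plus strand) had 626, 642 and 644 CPM with THZ1 in BxPC3, against 586, 574 and 565 CPM with DMSO. In Panc327 SLC3A2 had 2511, 2493 and 2608 CPM with THZ1, against 1825, 1777 and 1807 CPM with DMSO. In SUIT2 it had 783, 741 and 729 CPM with THZ1, against 731, 803 and 762.1 CPM with DMSO. Groups were apart in BxPC3 and Panc327 and overlapped in SUIT2. Its log2 fold change was 0.15 in BxPC3 (SE 0.037, edgeR adjusted p = 0.000267), 0.49 in Panc327 (SE 0.035, edgeR adjusted p = 1.78e-23) and -0.03 in SUIT2 (SE 0.036, edgeR adjusted p = 0.694). In BxPC3 it turned to -0.25 and passed with library size only (edgeR adjusted p = 3.65e-09).

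**Figure D3:**
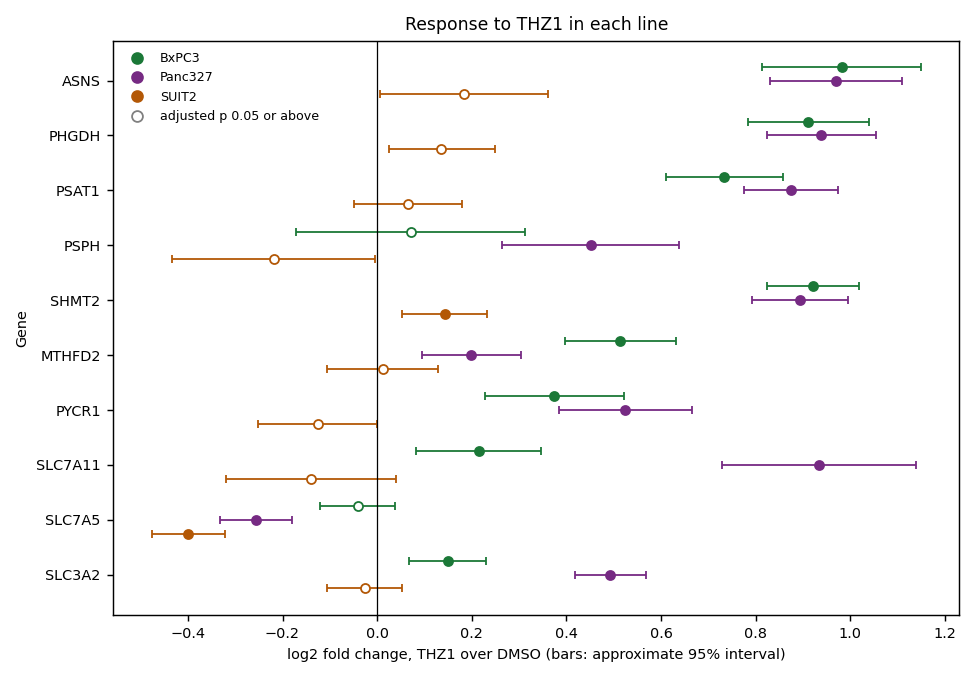
Log2 fold change of each gene, THZ1 over DMSO (x axis), in the 3 lines, with bars for an approximate 95% interval and open circles for an adjusted p of 0.05 or above. ASNS, PHGDH, PSAT1 and SHMT2 lie between 0.73 and 0.98 in BxPC3 and Panc327, and SLC7A5 lies below 0 in all 3 lines, uncalled in BxPC3.

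Ratios of 2 genes within a library need no scaling between libraries. The 3 pairs were chosen after their values were seen. SLC7A5 had 1.86 ± 0.04 counts per SLC3A2 count with THZ1 in BxPC3, against 2.12 ± 0.06 with DMSO (SD, n = 3 each). In Panc327 this ratio was 1.69 ± 0.11 with THZ1 against 2.84 ± 0.10 with DMSO, and in SUIT2 it was 2.56 ± 0.04 with THZ1 against 3.32 ± 0.09 with DMSO. The light chain was thus lower relative to its heavy chain in all THZ1 libraries of all 3 lines, which holds whichever scaling is used (exact permutation p = 0.1 in each line, the smallest p for 3 against 3). PSPH had 0.151 ± 0.019 counts per PHGDH count with THZ1 in BxPC3, against 0.270 ± 0.010 with DMSO. For Panc327 the PSPH ratio was 0.216 ± 0.019 with THZ1 and 0.302 ± 0.002 with DMSO, without overlap (exact permutation p = 0.1 in both lines). SUIT2 had 0.133 ± 0.019 with THZ1 and 0.168 ± 0.021 with DMSO, with overlap (exact permutation p = 0.2). MTHFD2 had 0.387 ± 0.014 counts per SHMT2 count with THZ1 in BxPC3, against 0.514 ± 0.029 with DMSO. The MTHFD2 ratio in Panc327 was 0.691 ± 0.037 with THZ1 and 1.12 ± 0.08 with DMSO (exact permutation p = 0.1 in both lines). SUIT2 had 0.231 ± 0.014 with THZ1 and 0.253 ± 0.015 with DMSO (exact permutation p = 0.2). A ratio shows unequal change of its genes and not which of them changed.

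**Figure D4:**
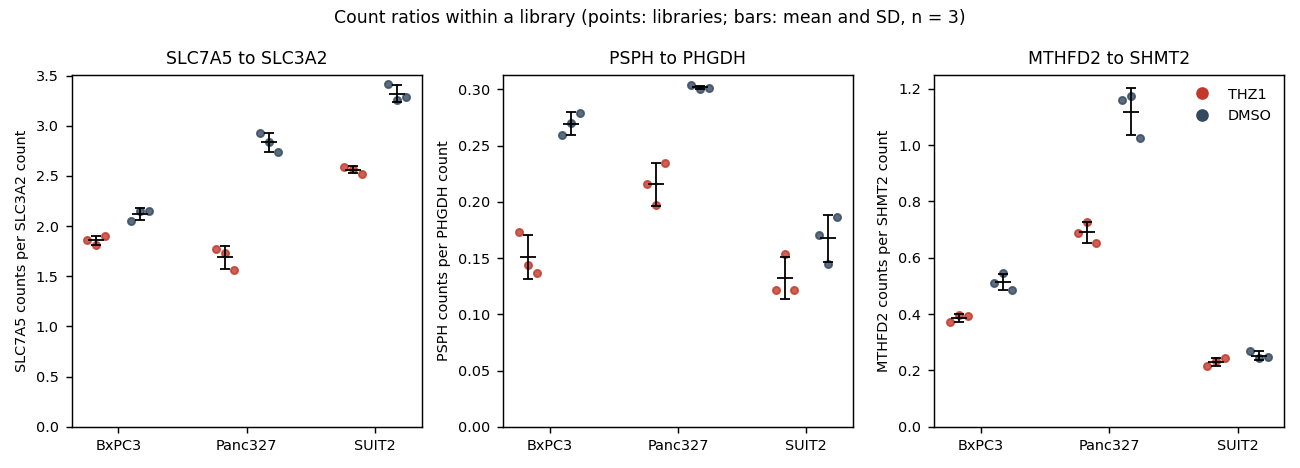
Counts of one gene per count of another within each library (y axis, linear from 0): SLC7A5 to SLC3A2, PSPH to PHGDH and MTHFD2 to SHMT2, with THZ1 (red, left) and DMSO (dark, right). Points are libraries and bars the mean and SD of 3; the SLC7A5 to SLC3A2 ratio is lower with THZ1 in every line.

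The responses were then compared between lines. Contrasts with SUIT2 share the SUIT2 libraries, and each pair of contrasts shares 1 line. Against SUIT2, the response of BxPC3 was higher for 9 of the 10 genes and lower for 0 (also 0 at an unadjusted p under 0.05, with DESeq2 and with limma voom), beside 27.3% of all tested genes higher and 27.6% lower. PSPH was not called (0.29, edgeR adjusted p = 0.0923; -0.090 with library size only). It passed as higher with RLE factors (0.33, edgeR adjusted p = 0.0489). It also passed without any 1 of BxPC3 THZ1 library 2, SUIT2 DMSO library 2 and SUIT2 THZ1 library 2. The response of Panc327 was higher than that of SUIT2 for all 10 and lower for 0 (again 0 at an unadjusted p under 0.05, with DESeq2 and with limma voom), beside 28.3% of all genes higher and 32.4% lower. Among the 4436 well expressed genes, 54.76% were higher and 21.84% lower for BxPC3 minus SUIT2, with a median of 0.28. For Panc327 minus SUIT2, 50.97% of them were higher and 29.6% lower, with a median of 0.22. The medians of the 10 genes were 0.50 and 0.71. These shares have the same limit of the level cutoff. With library size only the counts of the 10 genes were 4 higher and 1 lower for BxPC3, and 8 higher and 1 lower for Panc327. Over all genes library size only gave 1820 higher and 6158 lower for BxPC3 minus SUIT2, beside 3825 and 3869 with TMM, and 2338 higher and 5988 lower for Panc327 minus SUIT2, beside 3972 and 4535.

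ASNS responded more in BxPC3 than in SUIT2 by 0.80 on the log2 scale (SE 0.112, edgeR adjusted p = 1.68e-09) and more in Panc327 than in SUIT2 by 0.79 (SE 0.104, edgeR adjusted p = 1.76e-10). SHMT2 did so by 0.78 (SE 0.061, edgeR adjusted p = 2.64e-20) and 0.75 (SE 0.062, edgeR adjusted p = 2.83e-19). SLC7A11 differed most between Panc327 and SUIT2, by 1.07 (SE 0.125, edgeR adjusted p = 1.76e-10), while the BxPC3 response exceeded that of SUIT2 by 0.35 (SE 0.102, edgeR adjusted p = 0.00279; -0.027 with library size only). SLC7A5 fell less in Panc327 than in SUIT2 by 0.14 (SE 0.050, edgeR adjusted p = 0.00939; -0.17 with library size only). That small difference failed without Panc327 DMSO library 3 (0.12), without Panc327 THZ1 library 1 (0.11) and without SUIT2 THZ1 library 3 (0.11). MTHFD2 in Panc327 exceeded SUIT2 by 0.19 (SE 0.072, edgeR adjusted p = 0.0201; -0.12 with library size only) and failed without any 1 of Panc327 DMSO library 3 (0.17), Panc327 THZ1 libraries 1 (0.17) and 2 (0.17), and SUIT2 THZ1 library 1 (0.16). With no filter on low counts neither SLC7A5 (0.092, edgeR adjusted p = 0.135) nor MTHFD2 (0.14, edgeR adjusted p = 0.155) passed. The response was then higher in Panc327 than in SUIT2 for 8 of the 10, beside 3664 of 20202 tested genes higher and 4689 lower.

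BxPC3 and Panc327 differed in 5 of the 10 responses, with 2 higher and 3 lower in BxPC3, beside 22.2% of all tested genes higher and 14.1% lower. Over all genes 3110 were higher and 1978 lower with TMM, 2658 and 2575 with library size only, 2620 and 2664 with RLE factors, 2423 and 2350 with DESeq2, and 2341 and 3399 with these lines alone. The response was lower in BxPC3 for SLC7A11, with a difference of -0.72 (SE 0.112, edgeR adjusted p = 6.55e-07), for SLC3A2, with -0.34 (SE 0.051, edgeR adjusted p = 2.31e-08), and for PSPH, with -0.38 (SE 0.140, edgeR adjusted p = 0.0247). The PSPH difference failed without BxPC3 DMSO library 2 (-0.34), THZ1 library 2 (-0.30) or THZ1 library 3 (-0.35). MTHFD2 rose more in BxPC3 by 0.32 (SE 0.072, edgeR adjusted p = 0.000216). SLC7A5 rose in neither line, and its response was higher in BxPC3 by 0.21 (SE 0.050, edgeR adjusted p = 0.000315). That difference failed with DESeq2 (0.14, DESeq2 adjusted p = 0.0528) and in a fit of these lines alone (0.08, edgeR adjusted p = 0.184). The differences for ASNS (0.01, 95% interval -0.20 to 0.23), PHGDH (-0.03, -0.20 to 0.15), SHMT2 (0.03, -0.11 to 0.17), PSAT1 (-0.14, -0.30 to 0.02) and PYCR1 (-0.15, -0.35 to 0.05) did not pass. PSAT1 passed as lower in BxPC3 with RLE factors (-0.22, edgeR adjusted p = 0.0111), library size only (-0.21, edgeR adjusted p = 0.0139), DESeq2 (-0.22, DESeq2 adjusted p = 0.0129) and a fit of these lines alone (-0.28, edgeR adjusted p = 0.000602). PYCR1 passed with RLE factors (-0.23, edgeR adjusted p = 0.0471), library size only (-0.22, edgeR adjusted p = 0.0487), these lines alone (-0.29, edgeR adjusted p = 0.00288) and without Panc327 THZ1 library 3 (-0.23, edgeR adjusted p = 0.0478).

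**Figure D5:**
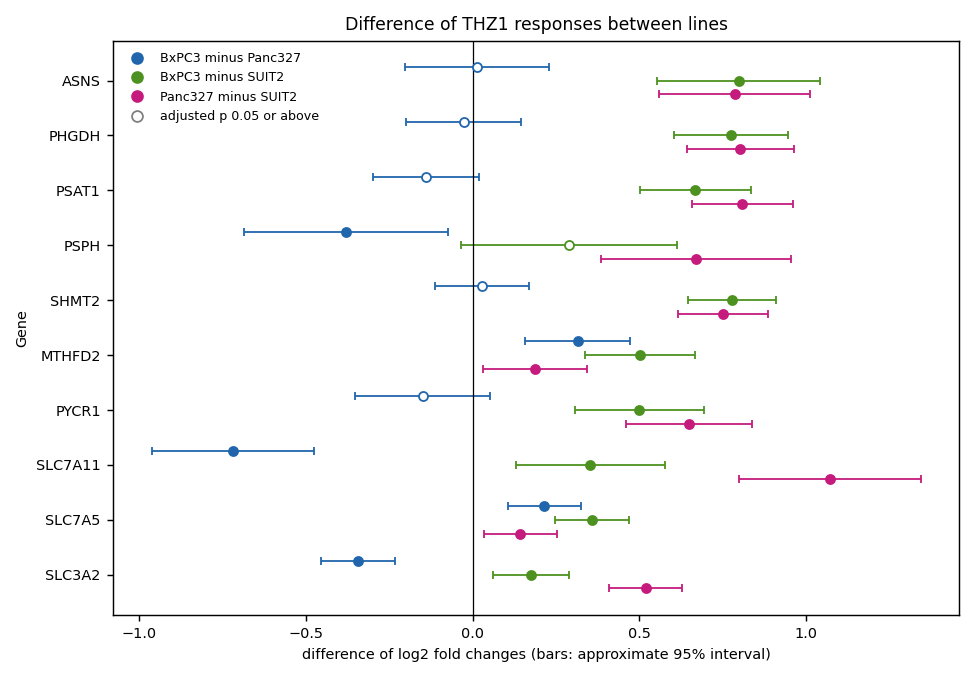
Difference between lines in the log2 fold change to THZ1 (x axis) for each gene, with bars for an approximate 95% interval and open circles for an adjusted p of 0.05 or above. With TMM both contrasts with SUIT2 lie above 0 for all 10 genes (with library size only PSPH, SLC3A2, SLC7A11 and SLC7A5 for BxPC3, and MTHFD2 and SLC7A5 for Panc327, lie below 0), and SLC7A11 has the widest spread, from -0.72 to 1.07.

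Levels before treatment differed between lines as well. With DMSO, BxPC3 held more SHMT2 and SLC7A11 than Panc327 and less of the other 8, beside 38.6% of all tested genes higher and 40.7% lower in BxPC3. Against SUIT2, BxPC3 was higher for SLC7A11 and lower for 7, beside 38.9% of all genes higher and 39.7% lower. Panc327 was higher than SUIT2 for 6 and lower for 4, beside 42.9% higher and 39.6% lower. SLC7A11 averaged 185 ± 12.5 CPM in BxPC3, 30.7 ± 2.07 CPM in Panc327 and 52.9 ± 5.71 CPM in SUIT2 (SD, n = 3 each), a 6.03-fold difference between BxPC3 and Panc327 (edgeR adjusted p = 3.76e-34). SLC7A5 ran the other way, at 1219 ± 17.1 CPM in BxPC3, 5114 ± 210 CPM in Panc327 and 2539 ± 65.5 CPM in SUIT2, a log2 difference of -2.07 between BxPC3 and Panc327 (edgeR adjusted p = 3.21e-67). SLC3A2 averaged 575 ± 10.2, 1803 ± 24.0 and 765 ± 36.1 CPM in BxPC3, Panc327 and SUIT2, in the same order as SLC7A5. SHMT2 was highest in SUIT2 at 380 ± 16.4 CPM, with 187 ± 6.01 CPM in BxPC3 and 161 ± 8.93 CPM in Panc327. ASNS (0.09, SE 0.082, edgeR adjusted p = 0.307) and MTHFD2 (-0.0016, SE 0.053, edgeR adjusted p = 0.991) did not pass between BxPC3 and SUIT2. The PSPH difference between those lines (-0.30) failed without SUIT2 DMSO library 3 (-0.19, edgeR adjusted p = 0.116).

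Per kilobase of exon, SLC7A5 and SLC3A2 were the first and second of the 10 in every line with DMSO. In BxPC3 they had 257 and 111 CPM per kb, followed by SHMT2 at 38.7, PSAT1 at 34.3 and PYCR1 at 26.7 CPM per kb. MTHFD2 (19.7) and SLC7A11 (19.2) overlapped between libraries, as did PHGDH (8.17), ASNS (7.44) and PSPH (7.35 CPM per kb) with their neighbours. Panc327 had 1078 CPM per kb of SLC7A5 and 348 of SLC3A2, with PSAT1 next at 87.9 and PSPH (12.9) and PHGDH (12.8 CPM per kb) overlapping. In SUIT2 SLC7A5 had 535 and SLC3A2 148 CPM per kb, SHMT2 came next at 78.6, and PSAT1 (50.1) and PYCR1 (49.3 CPM per kb) overlapped. SLC7A11 was the last of the 10 in Panc327 and in SUIT2 (5.49 CPM per kb in SUIT2). Exon lengths are unions over all GENCODE 29 transcripts, 9.22 kb for PHGDH and 9.65 kb for SLC7A11, which lowers the per-length level of a gene with long rarely used exons.

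With TMM, the summed level of the 10 genes was 2980 ± 43.3 CPM with THZ1 and 2542 ± 14.4 CPM with DMSO in BxPC3. In Panc327 the sum was 8254 ± 164 CPM with THZ1 and 7781 ± 224 CPM with DMSO, and in SUIT2 it was 3707 ± 159 CPM with THZ1 and 4291 ± 109 CPM with DMSO (SD, n = 3 each). As a share of each library's gene counts, without TMM, the direction turned in BxPC3 and Panc327: the 10 genes took 0.243% ± 0.002 with THZ1 and 0.273% ± 0.004 with DMSO in BxPC3, and 0.712% ± 0.008 with THZ1 and 0.841% ± 0.024 with DMSO in Panc327. In SUIT2 the share was 0.407% ± 0.015 with THZ1 and 0.477% ± 0.013 with DMSO, lower with THZ1 on both scales. The groups did not overlap in any line on either scale. SLC7A5 makes up much of each sum.

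Copies and neighbours could share reads with the 10 genes. SLC7A5P1 and SLC7A5P2, pseudogenes of SLC7A5 on chromosome 16, rose with THZ1 by 3.07 and 3.45 on the log2 scale in BxPC3 and by 2.51 and 4.24 in Panc327 (edgeR adjusted p of at most 7.76e-13). They are small beside their parent: SLC7A5P2 had 70, 93 and 89 counts with THZ1 in BxPC3, against 8, 11 and 15 with DMSO. In Panc327 SLC7A5P2 had 127, 90 and 110 counts with THZ1, against 8, 8 and 14 with DMSO. MTHFD2P1 had 0 to 2 counts in every library. NDUFA4L2, which overlaps SHMT2 on the other strand, had 16, 16 and 12 counts with THZ1 in Panc327, against 3, 2 and 1 with DMSO.

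ATF4 mRNA itself averaged 300 CPM with THZ1 and 229 CPM with DMSO in BxPC3 (log2 fold change 0.39, edgeR adjusted p = 9.97e-14; -0.0033 with library size only), 271 CPM with THZ1 and 359 CPM with DMSO in Panc327 (-0.41, edgeR adjusted p = 9.27e-15) and 184 CPM with THZ1 and 240 CPM with DMSO in SUIT2 (-0.38, edgeR adjusted p = 3.33e-11). Another 5 stress regulators that ATF4 is known to act on or with were read too. DDIT3 fell in BxPC3, Panc327 and SUIT2 (log2 fold changes of -2.42, -2.11 and -0.34). TRIB3 fell in BxPC3 and Panc327 (-1.04 and -1.497), and CHAC1 fell in BxPC3 (-1.22). SESN2 rose in BxPC3 (0.30) and fell in Panc327 (-2.36). The BxPC3 call of SESN2 was lost under library size only (-0.097), without DMSO library 1 (0.23) and without THZ1 library 2 (0.23). ATF3 rose in all 3 lines (1.40, 0.35 and 0.88). The Panc327 call of ATF3 was lost under library size only (0.022) and without DMSO library 1 (0.26). The SUIT2 call of ATF3 was lost without DMSO library 1 (0.82), DMSO library 2 (0.74) or THZ1 library 3 (0.58). Some of these levels were low. DDIT3 averaged 1.55 CPM with THZ1 and 8.41 CPM with DMSO in BxPC3, and 1.61 and 6.95 CPM in Panc327. CHAC1 averaged 1.27 CPM with THZ1 and 2.98 CPM with DMSO in BxPC3, and ATF3 3.46 and 1.87 CPM in SUIT2.

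Related enzymes and carriers were counted from lists, each beside the background percentages given above for its line. Of 17 tested genes of one-carbon and glycine metabolism, 7 rose and 4 fell in BxPC3 (median 0.16), and 10 rose and 3 fell in Panc327 (median 0.45). TYMS, which makes thymidylate, had 68.0 CPM with THZ1 and 36.1 CPM with DMSO in BxPC3 (0.91, edgeR adjusted p = 3.15e-21) and 210 CPM with THZ1 and 101 CPM with DMSO in Panc327 (1.06, edgeR adjusted p = 1.01e-33). MTFMT, which formylates the mitochondrial initiator tRNA, had 6.78 CPM with THZ1 and 13.04 CPM with DMSO in Panc327 (-0.95, edgeR adjusted p = 8.72e-08). In SUIT2 edgeR called 0 of the 17, with 0 higher and 2 lower at an unadjusted p under 0.05 and 0 with DESeq2 and limma voom. With library size only 3 rose and 7 fell in BxPC3, and 8 rose and 5 fell in Panc327.

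Of 8 tested proline and ornithine genes, 6 rose and 1 fell in BxPC3, 5 rose and 1 fell in Panc327, and 1 rose and 1 fell in SUIT2. OAT, ornithine aminotransferase, rose in every line: 713 CPM with THZ1 against 291 CPM with DMSO in BxPC3 (1.30, edgeR adjusted p = 9.5e-48), 489 CPM with THZ1 against 221 CPM with DMSO in Panc327 (1.14, edgeR adjusted p = 1.1e-42) and 156 CPM with THZ1 against 131 CPM with DMSO in SUIT2 (0.25, edgeR adjusted p = 3.87e-05). PYCRL, a paralog of PYCR1 in the cytosol, fell in BxPC3 (-1.43, edgeR adjusted p = 1.84e-18) and in Panc327 (-1.10, edgeR adjusted p = 1.6e-13), where PYCR1 rose. With library size only the list split into 3 higher and 2 lower in BxPC3 and 4 higher and 2 lower in Panc327.

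Of 12 tested aspartate, glutamate and alanine genes, 8 rose and 2 fell in both BxPC3 and Panc327, and 3 rose in SUIT2. GLUD1, glutamate dehydrogenase, had 319 CPM with THZ1 against 158 CPM with DMSO in BxPC3 (1.02, edgeR adjusted p = 5.03e-36) and 542 CPM with THZ1 against 243 CPM with DMSO in Panc327 (1.16, edgeR adjusted p = 1.69e-42). GOT1, which interconverts aspartate and oxaloacetate, rose in BxPC3 (1.05, edgeR adjusted p = 1.56e-28) and in SUIT2 (0.36, edgeR adjusted p = 1.18e-05). SLC25A12, a mitochondrial aspartate-glutamate carrier, fell in BxPC3 (-1.34, edgeR adjusted p = 2.42e-19) and in Panc327 (-1.64, edgeR adjusted p = 1.74e-21). Library size only gave 5 higher and 3 lower in each of BxPC3 and Panc327.

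Of 22 other amino acid transporters tested, 2 rose and 13 fell in BxPC3 (median -0.71), beside 35.2% of all tested genes higher and 34.1% lower. In Panc327 3 rose and 7 fell (median -0.06), beside 35.6% of all genes higher and 37.8% lower. In SUIT2 1 rose and 5 fell (median -0.13), beside 6.95% higher and 7.64% lower. SLC38A9, a lysosomal arginine sensor, had 8.32 CPM with THZ1 and 20.7 CPM with DMSO in BxPC3 (-1.31, edgeR adjusted p = 4.09e-14). SLC38A2, a sodium-coupled neutral amino acid transporter, had 101 CPM with THZ1 and 371 CPM with DMSO in Panc327 (-1.88, edgeR adjusted p = 1.08e-28). SLC38A5, a glutamine carrier of the same family, had 298 CPM with THZ1 and 189 CPM with DMSO in BxPC3 (0.66, edgeR adjusted p = 7.33e-23) and 162 CPM with THZ1 and 103 CPM with DMSO in Panc327 (0.65, edgeR adjusted p = 9.49e-20). With library size only 1 rose and 15 fell in BxPC3, and 1 rose and 13 fell in Panc327.

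Of 11 cysteine and glutathione genes, 5 rose and 3 fell in BxPC3, 6 rose and 3 fell in Panc327, and 2 rose and 1 fell in SUIT2. GPX4, which uses glutathione to reduce lipid peroxides, had 303 CPM with THZ1 and 135 CPM with DMSO in BxPC3 (1.17, edgeR adjusted p = 1.41e-36) and 219 CPM with THZ1 and 90.8 CPM with DMSO in Panc327 (1.27, edgeR adjusted p = 6.96e-37). MAT2A, which makes S-adenosylmethionine, had 142 CPM with THZ1 and 271 CPM with DMSO in BxPC3 (-0.93, edgeR adjusted p = 1.42e-32) and 68.9 CPM with THZ1 and 289 CPM with DMSO in Panc327 (-2.07, edgeR adjusted p = 8.55e-54). Library size only gave 4 higher and 4 lower in BxPC3, and 5 higher and 4 lower in Panc327.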

How the data were processed

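PolyA RNA from the 3 lines was sequenced from TruSeq libraries, per the labels' protocols. The deposited files hold the authors' raw read counts per gene, with summary records that name no gene and made up 21.3% to 64.6% of all records; library sizes and tests use the gene rows alone. The submitters' processing notes name bcl2fastq 1.8.4, TopHat2 2.1.0, HTSeq 0.6.1 and hg38. Which annotation, strand setting and counting mode HTSeq ran with was not given in the sources used here.

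Genes were filtered with edgeR's filterByExpr (minimum count 10, minimum total 15), leaving 14011 of 26485. One edgeR 4.0.16 quasi-likelihood model over all 18 libraries, with TMM scaling and 1 term per group, gave every contrast, and p-values were adjusted over all genes by Benjamini-Hochberg at 0.05. SE is the size of the log2 fold change over the root of F. The edgeR fit was tried on simulated counts in which a small part of the genes changed, in THZ1-treated BxPC3 alone and equally in both directions. In the real data most tested genes were called in BxPC3 and Panc327, so the simulation does not bear on the choice of scaling. Levels are TMM-scaled CPM, and positions come from GENCODE 29. Alternatives were RLE factors, library size only, DESeq2 1.42.0, limma voom 3.58.1, no filter, the compared lines alone, a replicate block and leaving out each library. The 10 genes were all described, and from each related list up to 2 called genes per direction and line, by size of change among genes of at least 10 CPM, were eligible; the first of each in BxPC3 and Panc327 are named, except 1 that is not reported here. The members and lists were chosen with earlier results of these data known.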

Additional observations from a re-analysis of the deposited data

Results flagged for a closer look

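The THZ1 response differed between lines, by the test of the difference itself (edgeR, adjusted p under 0.05), for 24 gene and line pairs among the 10 genes, given as differences of log2 fold changes. For BxPC3 minus Panc327 these were MTHFD2 at 0.32, PSPH at -0.38, SLC3A2 at -0.34, SLC7A11 at -0.72 and SLC7A5 at 0.21. For BxPC3 minus SUIT2 they were ASNS at 0.80, MTHFD2 at 0.50, PHGDH at 0.78, PSAT1 at 0.67, PYCR1 at 0.50, SHMT2 at 0.78, SLC3A2 at 0.18, SLC7A11 at 0.35 and SLC7A5 at 0.36. For Panc327 minus SUIT2 they were ASNS at 0.79, MTHFD2 at 0.19, PHGDH at 0.80, PSAT1 at 0.81, PSPH at 0.67, PYCR1 at 0.65, SHMT2 at 0.75, SLC3A2 at 0.52, SLC7A11 at 1.07 and SLC7A5 at 0.14. These contrasts share libraries with each other. Shares over all tested genes are given with the results. Which of the differences reversed or lost the call under library size only is given with the processing.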

How the results depend on the processing

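Under library size only, the 10 genes were 5 higher and 4 lower in BxPC3, 2 were lower in Panc327, and the response differences gave 5 lower for BxPC3 minus Panc327, 4 higher and 1 lower for BxPC3 minus SUIT2, and 1 lower for Panc327 minus SUIT2. Signs turned there for PSPH (-0.32), PYCR1 (-0.021), SLC3A2 (-0.25), SLC7A11 (-0.18), ATF4 (-0.0033) and SESN2 (-0.10) in BxPC3, for MTHFD2 (-0.13) and CHAC1 (-0.25) in Panc327, and for MTHFD2 in SUIT2 (-0.0041). They also turned for ASNS (-0.058) and SHMT2 (-0.043) in BxPC3 minus Panc327, for PSPH (-0.090), SLC3A2 (-0.20), SLC7A11 (-0.027) and SLC7A5 (-0.021) in BxPC3 minus SUIT2, and for MTHFD2 (-0.12) and SLC7A5 (-0.17) in Panc327 minus SUIT2. Of these differences, SLC3A2 in BxPC3 minus SUIT2 (edgeR adjusted p = 0.000272) and SLC7A5 in Panc327 minus SUIT2 (edgeR adjusted p = 0.00122) passed as lower. In BxPC3 minus SUIT2, MTHFD2 (0.12, edgeR adjusted p = 0.165) and PYCR1 (0.12, edgeR adjusted p = 0.241) kept their sign and lost the call. The shift of the median of all genes is given with the results.

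Values near 0 changed sign under other settings. For BxPC3 minus Panc327, ASNS stood at -0.065 with RLE, -0.066 with DESeq2 and -0.12 with only the lines compared, and SHMT2 at -0.050, -0.049 and -0.11. MTHFD2 with DMSO in BxPC3 against SUIT2 was 0.010 with RLE and with DESeq2 and 0.012 with only the lines compared. For BxPC3 minus Panc327, 5 were lower with RLE and with only the lines compared, and 1 was higher with DESeq2 and with only the lines compared. In BxPC3 1 of the 10 (SLC7A5) was lower with only that line fitted. DESeq2 called 1300 genes in SUIT2, against 2044.

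Leaving out 1 library gave 0 to 2 of the 10 higher, 1 to 2 lower and 1353 to 2103 genes called in SUIT2. Values that crossed 0 ran from -0.040 to 0.15 for PSPH in BxPC3, -0.015 to 0.036 for MTHFD2, -0.060 to 0.0076 for SLC3A2 and -0.0077 to 0.14 for SESN2 in SUIT2, and -0.058 to 0.20 for CHAC1 in Panc327. In BxPC3 minus Panc327 they ran from -0.039 to 0.084 for ASNS, -0.074 to 0.025 for PHGDH and -0.017 to 0.064 for SHMT2, and MTHFD2 with DMSO in BxPC3 against SUIT2 ran from -0.020 to 0.018. The cause of these changes was not tested.

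The replicate block changed no call of the 10 genes and gave 9692 genes called in BxPC3, 10249 in Panc327 and 1952 in SUIT2. Deviations from the group mean correlated at -0.206 to 0.042 between THZ1 and DMSO libraries of the same line and number, over 9 pairs. These values gave no sign of pairing by number, but 3 libraries per group cannot exclude it. Depth was not varied; among the 10 genes the largest SE of a THZ1 response was that of PSPH in BxPC3 (0.111) and SUIT2 (0.098) and of SLC7A11 in Panc327 (0.094).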
